A study of Mus musculus with 6 samples.

Results

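The genes followed here are 10 that astrocytes raise when they become reactive, read out in the substantia nigra (SN) of MitoPark mice: Gfap, Vim, Serpina3n, Lcn2, Osmr, Cd44, S1pr3, Hspb1, Aspg and Stat3. They were chosen by name, and all 10 were found among the 24054 genes of the deposited table. Messenger RNA was sequenced from the SN of 3 MitoParks and 3 littermate controls, with a recorded age of 16 to 17 weeks. MitoParks carry Cre recombinase at 1 allele of the dopamine transporter gene (Dat +/Cre) and floxed Tfam on both alleles (Tfam LoxP/LoxP), so that Tfam, which encodes mitochondrial transcription factor A, is deleted in cells that express the transporter. Littermate controls had no Cre (Dat +/+) and 1 floxed Tfam allele (Tfam +/LoxP). The methods of the study describe these controls as C57BL/6 mice and do not state the background of the MitoParks. No mouse was treated. Cre is thus driven in dopaminergic neurons and not in astrocytes. The labels name the tissue as brain, and the SN is the tissue given by the methods of the study.

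Astrocytes respond to injury, inflammation and neuronal loss by enlarging, extending processes and switching on a characteristic set of genes. The intermediate filament proteins GFAP and vimentin are the classical signs of this state. Much of the response runs through cytokines of the interleukin-6 family, whose receptors activate JAK kinases, which phosphorylate the transcription factor STAT3, which in turn acts on genes including Gfap. In the healthy brain Gfap is far more abundant in astrocytes of fibre tracts and of the surface than in those of grey matter. Vim, Cd44, S1pr3 and Hspb1 are also transcribed by vascular or ependymal cells, and Serpina3n also by oligodendrocytes.

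None of the 10 genes passed the cutoffs used here in MitoParks, namely p below 0.05 before adjustment together with more than a 1.5-fold difference. Gfap came nearest, at 239 ± 99.0 CPM (counts scaled to a common library size, normalized by TMM) in littermate controls and 387 ± 150 CPM in MitoParks (SD, n = 3 each). Of the 9 genes abundant enough to be tested, 6 had a higher and 3 a lower fitted level in MitoParks. Their median difference on the log2 scale was 0.07, against -0.0047 over all 14568 genes tested. Among all tested genes 84 passed the cutoffs, or 0.577% (0.378% higher and 0.199% lower in MitoParks), and 1.11% had p below 0.05 before adjustment, against 0 of the 9. At so low a background, 0 of 9 says little about the list. No tested gene had an adjusted p below 0.05 (quasi-likelihood test of edgeR, Benjamini-Hochberg adjustment). The adjusted p of each of the 9 genes was 0.999. In bulk tissue, fewer cells of a type and less RNA per cell cannot be told apart.

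The total counts per mouse ranged from 8140777 to 10528602. Tfam itself was at 43.4 ± 2.71 CPM in the littermate controls and 33.0 ± 0.284 CPM in MitoParks (SD, n = 3 each), each MitoPark being below each littermate control. Defining astrocyte markers were present in all mice, with Aldh1l1 between 56.5 and 78.6 CPM and Slc1a3 between 437 and 687 CPM. Littermate control 3 stood apart by its dopaminergic genes, and the 10 dopaminergic markers summed to 1653 CPM in that mouse against 345 to 656 CPM in the other 5. With 3 mice a side, the smallest p that an exact permutation test (two-sided) allows is 0.1. The study calls the controls littermates, but its methods allow controls from MitoPark litters or from litters of the parental strain. The labels do not say from which litters the mice came. A difference of litter or parental line thus cannot be told apart from one of genotype. The edgeR p-values set the group difference against the spread within groups. The permutation p-values set it against other splits of the same 6 mice.

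**Figure D1:**
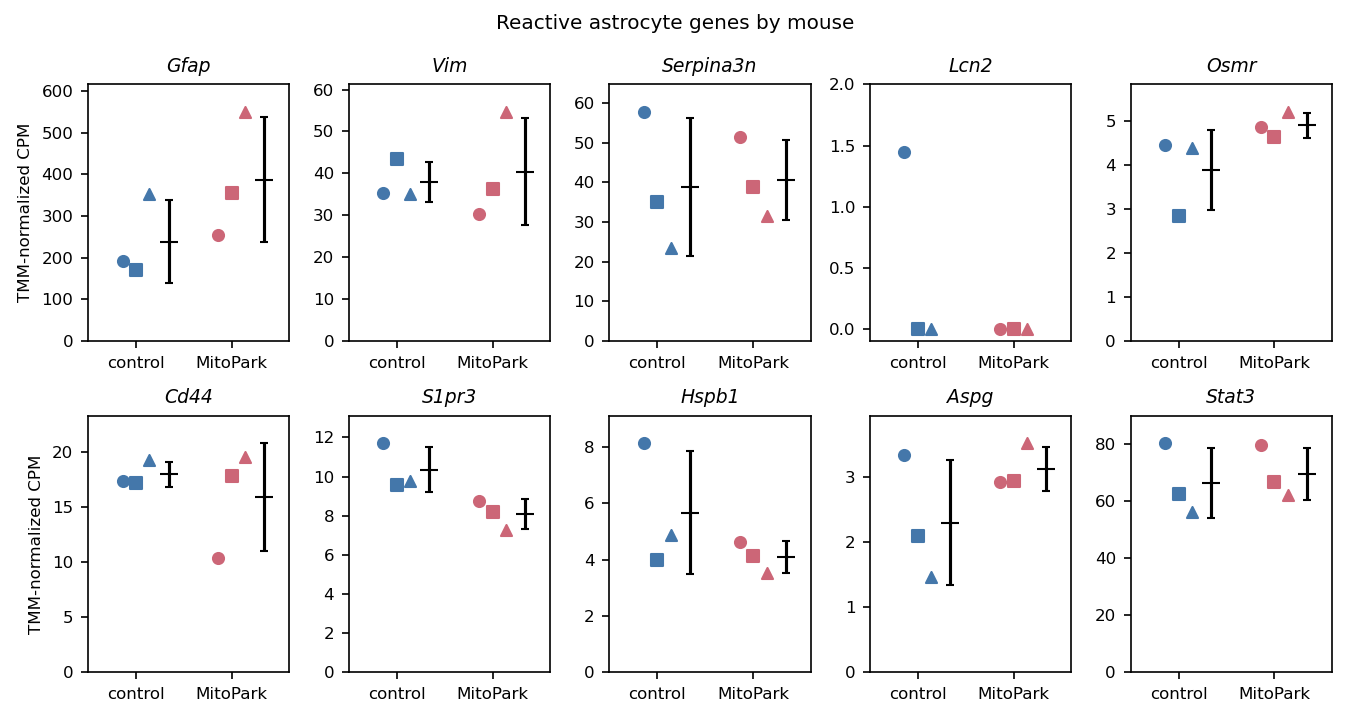
TMM-normalized CPM (y axis) of the 10 reactive astrocyte genes in 3 littermate controls (blue) and 3 MitoParks (red). Circle, square and triangle are replicates 1, 2 and 3 of each group, and the black bar is the mean ± SD, left out for Lcn2. Gfap reached 550 CPM in MitoPark 3, while Lcn2 was counted in littermate control 1 alone.

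The filament genes come first. Gfap encodes the main intermediate filament protein of astrocytes. Its level was 193, 171 and 352 CPM in littermate controls 1, 2 and 3, and 255, 356 and 550 CPM in MitoParks 1, 2 and 3. Littermate controls 1 and 2 were the lowest mice and MitoParks 2 and 3 the highest, but the groups overlapped, because littermate control 3 lay above MitoPark 1 and level with MitoPark 2. The fitted log2 difference was 0.70 (standard error 0.32), a 1.62-fold difference with a 95% interval from 0.988 to 2.66. By the quasi-likelihood test of edgeR p was 0.0548 before adjustment, place 183 among the genes tested, and the exact permutation test gave p = 0.2.

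The call for Gfap depended on the mice, the test and other settings. Without littermate control 3 the log2 fold change was 1.09 (unadjusted p = 0.00135), and without MitoPark 1 it was 0.93 (unadjusted p = 0.0174), both past the cutoffs, whereas without MitoPark 3 it was 0.36 (unadjusted p = 0.27). With all 6 mice the unadjusted p was 0.0331 by edgeR's likelihood ratio test, 0.0493 by limma-voom and 0.142 by DESeq2, and the adjusted p was 1 by each of the 3. Within edgeR's quasi-likelihood fit Gfap also passed with total counts in place of TMM (unadjusted p = 0.0468), without the filter on low counts (unadjusted p = 0.0246) and with the replicate number as a block (unadjusted p = 0.000243, adjusted p = 0.653), although the labels give no shared litter or batch behind the numbers.

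The proximal promoter of Gfap is shown because it is the member whose window holds the letters of a STAT binding motif. The stretch below runs from 60 bases before the RefSeq start of the gene to 20 bases into the transcript (GRCm38.p6, chr11:102897181-102897260, minus strand, 5′ to 3′), with the motif TTCCNGGAA in capitals.
Gfap: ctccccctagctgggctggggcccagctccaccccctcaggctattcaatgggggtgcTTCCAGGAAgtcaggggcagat
The motif begins 2 bases before the start. Searched on both strands in windows from 250 bases before to 50 bases after the start, TTCCNGGAA was found in 1.15% of 32851 RefSeq promoters, and the looser TTCNNNGAA, which contains it, in 8.3%. All 10 genes matched a promoter in that table, and Gfap alone of the 10 held either motif. A match is a description of the letters and not of a bound site.

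Gfap differed between mice along with genes of another cell type. The 8 oligodendrocyte markers, which encode myelin proteins and lipid enzymes, summed to 6975, 9800 and 18438 CPM in littermate controls 1, 2 and 3 and to 9518, 12407 and 15623 CPM in MitoParks. Littermate control 3 and MitoPark 3 had the most myelin RNA, and each had the most Gfap of its own group. None of the 8 markers passed the cutoffs, with a median log2 fold change of 0.02 between the groups. Set against the summed myelin markers, Gfap was at 27.6, 17.4 and 19.1 CPM per 1000 CPM in the littermate controls and at 26.8, 28.7 and 35.2 in MitoParks, and littermate control 1 then overlapped with the MitoParks (exact permutation test, p = 0.2). The part of myelinated tissue in the Gfap difference was not tested.

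Aqp4, the water channel of astrocyte endfeet, followed the same mice. It was at 161, 196 and 409 CPM in the littermate controls and at 164, 361 and 392 CPM in MitoParks, a log2 fold change of 0.26 (edgeR, unadjusted p = 0.512). Relative to Aqp4, Gfap was at 119, 87.2 and 86.2% in littermate controls and at 156, 98.5 and 140% in MitoParks, and the groups again overlapped (exact permutation test, p = 0.2). S100b, a calcium-binding protein gene that oligodendrocytes also transcribe, was likewise highest in mouse 3 of each group, at 132, 196 and 287 CPM in the littermate controls and at 190, 223 and 307 CPM in MitoParks. The sum of the astrocyte markers, most of which came from Slc1a2, Glul and Aldoc, varied less. The 14 genes summed to between 6751 and 7989 CPM in the littermate controls and between 7186 and 8005 CPM in MitoParks, 10 of the 14 were higher and 4 lower in MitoParks with a median log2 fold change of 0.09, and 0 passed the cutoffs.

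**Figure D2:**
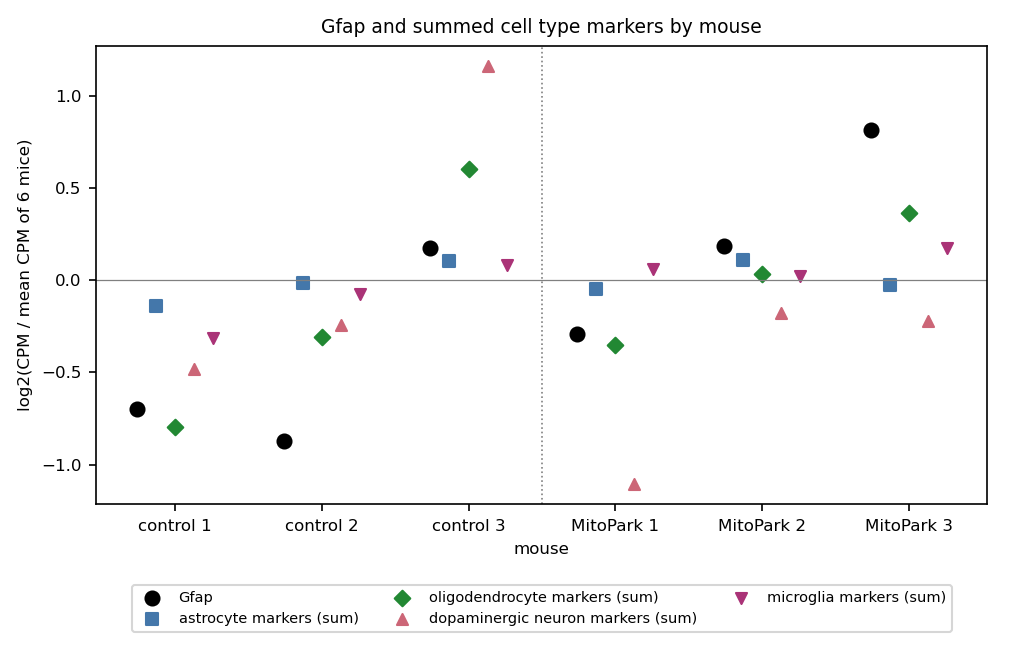
Gfap and the summed CPM of 4 lists of cell type markers in each mouse, as log2 of the CPM over the mean of the 6 mice (y axis). Gfap (black circles) and the oligodendrocyte sum (green diamonds) were both highest within their group in littermate control 3 and MitoPark 3, while the astrocyte sum (blue squares) stayed near 0.

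Vim encodes vimentin, which polymerizes with GFAP in reactive astrocytes and is made by endothelial and mesenchymal cells as well. It was at 35.4, 43.5 and 35.0 CPM in the littermate controls and at 30.2, 36.3 and 54.6 CPM in MitoParks. MitoParks included both the lowest and the highest mouse, and the littermate controls lay between them. On the log2 scale the fold change was 0.09 (standard error 0.21), with a fold interval of 0.769 to 1.47, which does not reach 1.5 in the direction of a rise. It was -0.19 without MitoPark 3. That mouse also had the highest sum of the 8 pericyte and smooth muscle markers, at 243 CPM against 151 and 189 CPM in the other 2 MitoParks and 163 to 222 CPM in littermate controls. The contractile genes of smooth muscle stood out in it, with Myh11 at 35.6 CPM and at most 17.7 CPM elsewhere, Acta2 at 29.1 and at most 16.0 CPM, and Tagln at 17.7 and at most 10.6 CPM. The pericyte genes Rgs5, Pdgfrb, Kcnj8 and Abcc9 were instead highest in littermate control 3, with Rgs5 at 69.1 CPM there and 46.4 CPM in MitoPark 3. Vtn, the remaining gene of the list, was highest in MitoPark 3, at 68.6 CPM against 62.8 CPM in littermate control 3. These genes were named after their values were seen. The part of vascular tissue in the Vim level of MitoPark 3 was not tested.

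The promoter of Vim held a TATA box, printed here to set beside the Gfap window, which has no TATAAA (GRCm38.p6, chr2:13574251-13574310, plus strand, ending at the last base before the start, with TATAAA in capitals).
Vim: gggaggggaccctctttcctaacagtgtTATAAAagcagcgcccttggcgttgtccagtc
TATAAA begins 32 bases before the start, and 13.6% of all promoters of this length hold it on either strand.

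Among the other intermediate filament genes, 8 were tested and none passed the cutoffs, with 3 higher and 5 lower and a median log2 fold change of -0.03. The most abundant were neuronal. Nefm, a subunit of neurofilaments, was at 263, 352 and 589 CPM in the littermate controls and at 309, 516 and 398 CPM in MitoParks. Des, which encodes the muscle filament desmin, is named after its values were seen. It was the member of this list whose groups did not overlap, at 1.27 to 1.42 CPM in the littermate controls and 1.46 to 2.33 CPM in MitoParks (log2 fold change 0.56, edgeR, unadjusted p = 0.125). Of all tested genes 2.43% were likewise higher in MitoParks without overlap.

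Serpina3n and Lcn2 encode secreted proteins. Serpina3n encodes an inhibitor of serine proteases. It was at 57.8, 35.0 and 23.6 CPM in the littermate controls and at 51.4, 38.8 and 31.6 CPM in MitoParks. The range of the MitoParks lay entirely within that of the littermate controls. The log2 fold change came to 0.07 (standard error 0.30), with a fold interval of 0.66 to 1.67, and it changed sign without littermate control 3 (-0.19) and without MitoPark 1 (-0.13). Littermate control 3 and MitoPark 3, each with the most Gfap of its group, had the least Serpina3n of their groups. Serpina3n belongs to a family of near copies that can share reads. The 10 other family members in the table held few counts, and Serpina3g, the most abundant, had 7 to 15 counts per mouse against 241 to 519 for Serpina3n.

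Lcn2, lipocalin 2, binds iron-carrying siderophores and is strongly induced in inflamed brain. It had 13 counts in littermate control 1 and 0 counts in the other 2 littermate controls and in all 3 MitoParks. A count of 0 allows up to 3 counts, or between 0.285 and 0.366 CPM at these depths, and the Lcn2 count of littermate control 1 was 1.45 CPM. Lcn2 was below the mean of 1 CPM required for testing, and no fold change is given because most mice of both groups were at 0. Neutrophil granules also store lipocalin 2. Of the 4 neutrophil genes in the table, littermate control 1 had 6 counts of S100a8, 4 of S100a9, 1 of Ngp and 2 of Camp, where the other 2 littermate controls had 0 or 1 count of each. MitoPark 3 had 3 counts of S100a8 and 4 of S100a9 with no Lcn2. Haemoglobin and other red cell genes went the other way, and the 7 blood cell markers together were lowest in littermate control 1, at 86.5 CPM against 149 to 200 CPM in the other 5 mice. The part of blood cells in the Lcn2 count was not tested.

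Osmr, Cd44 and S1pr3 encode proteins of the cell surface. Osmr is the receptor subunit that binds oncostatin M and signals with the shared receptor Il6st. It was at 4.45, 2.85 and 4.399 CPM in the littermate controls and at 4.88, 4.65 and 5.22 CPM in MitoParks. Each MitoPark was above each littermate control (exact permutation test, p = 0.1), by a narrow margin over 2 of the 3. The fitted log2 difference was 0.34 (standard error 0.25, edgeR, unadjusted p = 0.212), with a fold interval of 0.854 to 1.86. Between 30 and 46 counts per mouse lay behind these values.

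S1pr3, a G protein-coupled receptor for sphingosine 1-phosphate, was the reverse case. Its level was 11.7, 9.59 and 9.77 CPM in the littermate controls and 8.78, 8.19 and 7.26 CPM in MitoParks, each MitoPark being below each littermate control (exact permutation test, p = 0.1). On the log2 scale the fold change was -0.36 (standard error 0.18, edgeR, unadjusted p = 0.071), with a fold interval of 0.594 to 1.03. Its spread within groups was small, with a coefficient of variation of 11.2% in littermate controls and 9.49% in MitoParks. In GENCODE M21, 1.01% of its exonic bases overlap Gm32834, a non-coding RNA gene on the other strand. Osmr and S1pr3 were thus the 2 of 9 tested members whose groups did not overlap, 1 in each direction. Of all tested genes 4.71% did not overlap, 2.43% being higher and 2.28% lower in MitoParks.

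Cd44, a receptor for the matrix polysaccharide hyaluronan, was at 17.4, 17.2 and 19.3 CPM in littermate controls, which differed little. MitoParks 2 and 3 were within or just above that range, at 17.8 and 19.5 CPM, while MitoPark 1 was at 10.4 CPM. The log2 fold change came to -0.17 (standard error 0.21), with a fold interval of 0.636 to 1.24, and it was 0.06 without MitoPark 1. MitoPark 1 was also the mouse with the least Vim, and with the least Nes, a filament gene of stem cells, at 8.53 CPM against 12.3 CPM or more elsewhere (Nes was picked after its values were seen). The 8 fibroblast markers summed to 88.0 CPM in MitoPark 1, 150 and 158 CPM in the other 2 MitoParks, and 91.8 to 134 CPM in littermate controls. MitoPark 1 was the lowest mouse for 3 of the 8, Dcn, Igf2 and Islr, and not for the other 5, among them the collagen genes Col1a1, Col1a2 and Col3a1. The part of connective tissue in the Cd44 level of MitoPark 1 was not tested.

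Stat3 is the transcription factor that acts downstream of Osmr. It was at 80.2, 62.6 and 56.2 CPM in the littermate controls and at 79.6, 66.7 and 62.2 CPM in MitoParks. The range of the MitoParks again lay within that of the littermate controls. The fitted log2 difference was 0.07 (standard error 0.15), the most precise of the 9, and its fold interval of 0.825 to 1.33 leaves out a change of 1.5-fold in either direction. The sign turned without littermate control 3 (-0.04) and without MitoPark 1 (-0.03). STAT3 is activated by phosphorylation, which these RNA data do not measure. In the annotation used here (GENCODE M21), 0.756% of the exonic bases of Stat3 overlap Stat5a on the other strand, and Stat5a was at 2.74 to 4.12 CPM.

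Hspb1 encodes a small heat shock protein that binds unfolded proteins and filaments. It was at 8.13, 3.99 and 4.89 CPM in the littermate controls and at 4.63, 4.15 and 3.51 CPM in MitoParks. Littermate control 1 was far above the other mice, and without it the log2 fold change moved from -0.46 (standard error 0.30, fold interval 0.456 to 1.16) to -0.11. The promoter of Hspb1 is shown because it carries a pair of matches to the heat shock element motif (GRCm38.p6, chr5:135887779-135887858, plus strand, with GAANNTTC in capitals).
Hspb1: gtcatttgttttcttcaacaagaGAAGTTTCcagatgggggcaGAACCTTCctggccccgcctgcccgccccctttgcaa
The matches begin 117 and 97 bases before the start. GAANNTTC was found in 7.86% of all promoters of this length and in no other member, and the reverse arrangement TTCNNGAA, found in 8.52%, was in none of the 10. Of the other small heat shock genes 4 were tested and 0 passed the cutoffs. Cryab, the most abundant of them, was at 79.5, 110.8 and 153 CPM in the littermate controls and at 108, 139 and 127 CPM in MitoParks, an order of mice unlike that of Hspb1.

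Aspg encodes an asparaginase. Its level was 3.34, 2.09 and 1.47 CPM in the littermate controls and 2.93, 2.93 and 3.51 CPM in MitoParks, from 15 to 31 counts per mouse. MitoParks were close together, with a coefficient of variation of 10.8%, and littermate controls were spread, at 41.5%, with littermate control 1 among the MitoParks. On the log2 scale the fold change was 0.45 (standard error 0.34, edgeR, unadjusted p = 0.215), with a fold interval of 0.806 to 2.32. Without littermate control 1 Aspg passed the cutoffs, at 0.81 (unadjusted p = 0.0466, adjusted p = 1).

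**Figure D3:**
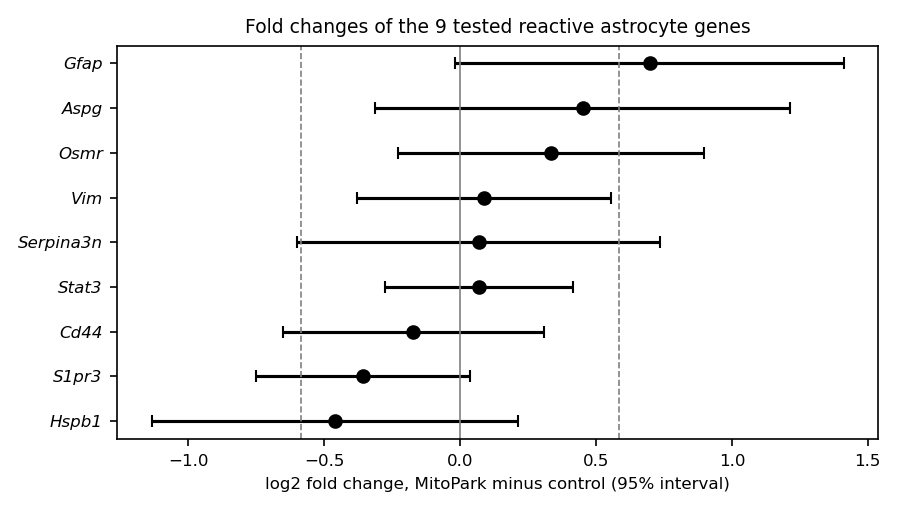
Log2 fold change (x axis, MitoPark minus littermate control) of the 9 tested reactive astrocyte genes, with 95% intervals from edgeR's quasi-likelihood fit. Dashed lines mark a 1.5-fold change. All 9 intervals include 0, and that of Gfap has its lower end at -0.017.

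The genes differed widely in abundance. Per kilobase of the longest GENCODE M21 transcript, the level in littermate controls was 90.1 ± 37.4 CPM for Gfap, 18.8 ± 8.44 for Serpina3n, 12.98 ± 1.64 for Vim and 11.0 ± 2.06 for Stat3 (SD, n = 3 each). The spreads (mean ± SD) of Serpina3n, Vim and Stat3 overlapped. Hspb1 followed at 6.10 ± 2.34, Cd44 at 3.20 ± 0.204 and S1pr3 at 2.32 ± 0.261 CPM per kilobase, and Aspg, Osmr and Lcn2 were below 1. Gfap was the most abundant member on this scale in MitoParks too, at 146 ± 56.6 CPM per kilobase.

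The 9 tested genes did not share a pattern over the 6 mice. Of their 36 pairs, 19 had a Pearson correlation above 0 and 17 below, on log2 CPM over 6 mice of both groups, with a median of 0.08. Serpina3n and Stat3 were the most alike (r = 0.98), both high in replicate 1 and low in replicate 3 of each group. S1pr3 and Hspb1 came next (r = 0.88), and Gfap and S1pr3 were the most opposed (r = -0.78). These are descriptions over few points that share libraries. Littermate control 1 had the highest level of 4 of the 9 genes and MitoPark 3 of the other 5, so no group held the peak of the set. The genes of mean CPM 10 or more whose levels were most like those of Gfap were Plekhh2, Abhd4, Axl, Narfl and Bgn. Their r was between 0.97 and 0.98 over 6 mice, the highest among 10439 genes compared. The top of so many correlations over 6 mice has a high r by the choice itself, so these values are no evidence of a link with Gfap. Axl, a receptor tyrosine kinase that recognizes dying cells, was at 55.7, 51.6 and 61.0 CPM in the littermate controls and at 59.0, 62.3 and 71.1 CPM in MitoParks (edgeR, unadjusted p = 0.139).

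**Figure D4:**
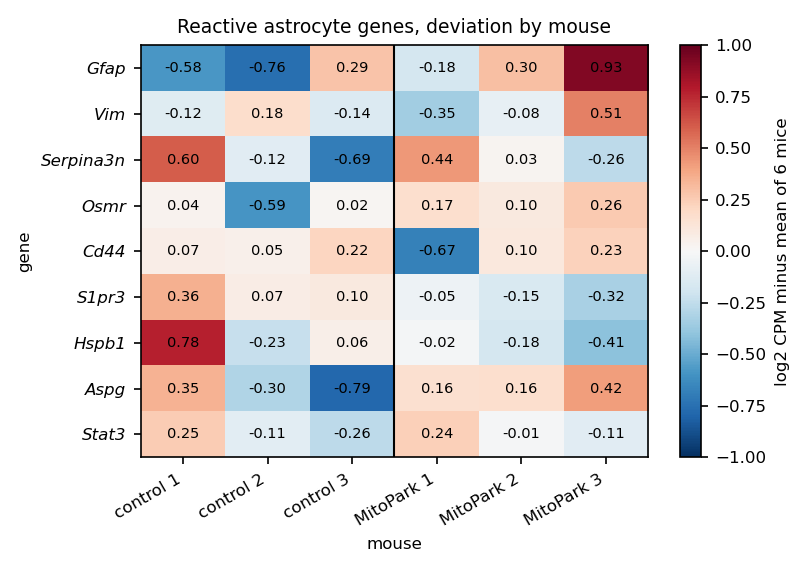
Log2 CPM of the 9 tested genes in each mouse minus the mean of the 6 mice (colour and printed value). Gfap ran from -0.76 in littermate control 2 to 0.93 in MitoPark 3, while Serpina3n and Stat3 were above the mean in replicate 1 of both groups.

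The wider reactive programme was measured with lists of other genes. Of 4 further genes that astrocytes raise in most kinds of injury, Cp, the copper oxidase ceruloplasmin, was tested and was at 17.7 to 22.0 CPM in the littermate controls and 18.8 to 25.2 CPM in MitoParks. Timp1, Steap4 and Cxcl10 were below the level required, and Timp1, among the most inducible genes of reactive astrocytes, had 1 to 9 counts in littermate controls and 2 to 4 in MitoParks. Of 13 genes induced by inflammation, 12 were tested, 9 were higher and 3 lower with a median log2 fold change of 0.14, and 0 passed the cutoffs. The complement component C3, often used to name this state, was at 2.67 to 3.99 CPM in the littermate controls and 2.53 to 3.66 CPM in MitoParks. The adhesion molecule gene Amigo2 was at 90.4, 66.2 and 33.1 CPM in the littermate controls and at 98.1, 55.7 and 58.7 CPM in MitoParks. Of 12 genes induced by ischaemia, 7 were tested, 3 were higher and 4 lower with a median of -0.30, and 0 passed the cutoffs. S100a10, a calcium-binding protein gene and the most abundant of them in littermate controls, had the lowest log2 fold change of the list. It was at 7.46, 15.9 and 10.4 CPM in the littermate controls and at 9.02, 6.98 and 8.28 CPM in MitoParks (log2 fold change -0.48, edgeR, unadjusted p = 0.107). Tm4sf1, the most abundant in MitoParks, was at 7.91, 10.3 and 8.31 CPM in the littermate controls and at 8.90, 8.29 and 13.4 CPM in MitoParks (log2 fold change 0.20, edgeR, unadjusted p = 0.385). Cd14 had the highest log2 fold change of the list, at 0.61 (edgeR, unadjusted p = 0.127). It was at 1.78, 1.14 and 1.08 CPM in the littermate controls and at 2.32, 1.52 and 2.27 CPM in MitoParks.

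No gene of the signalling route to Stat3 passed the cutoffs. Osm, the ligand of Osmr, had 0 or 1 count in every mouse and Il6 had 0 to 2 counts, both under the floor of 3 counts. Of the 8 ligand genes Cntf, with 7 to 25 counts, and Ctf1, with 10 to 17 counts, were abundant enough to be tested, and neither passed the cutoffs. Ctf1, which encodes cardiotrophin 1, did not overlap between the groups and was lower in MitoParks (log2 fold change -0.36, edgeR, unadjusted p = 0.308). Of all tested genes 2.28% were likewise lower without overlap. The 5 receptor genes were all tested, with a median log2 fold change of 0.0062 and 0 past the cutoffs. Il6st, the shared signalling subunit, was at 114, 94.8 and 110 CPM in the littermate controls and at 99.2, 128 and 92.4 CPM in MitoParks. Of 15 kinases, other STATs and inhibitors, 8 were higher and 7 lower, with a median of 0.0025 and 0 past the cutoffs. Socs3, the feedback inhibitor that STAT3 induces, was at 2.17 ± 1.24 CPM in the littermate controls and 2.18 ± 0.519 CPM in MitoParks (SD, n = 3 each). Of 9 further genes of sphingosine 1-phosphate signalling 7 were tested and 0 passed, and S1pr1, the main receptor of astrocytes and endothelium, was at 127 to 163 CPM in the littermate controls and 124 to 160 CPM in MitoParks.

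Microglia, whose cytokines are known to drive astrocytes into the reactive state, had 11 of 12 tested markers higher in MitoParks, with a median log2 fold change of 0.24, and 0 passed the cutoffs. Of all 14568 tested genes 7077 were higher. Each MitoPark lay above each littermate control for 3 of the 12 markers, C1qa, Aif1 and Siglech, beside the 2.43% of all genes given above. C1qa, a chain of complement C1q, did not reach 1.5-fold (edgeR, unadjusted p = 0.031, adjusted p = 0.999), at 27.5, 29.3 and 32.6 CPM in the littermate controls and 36.8, 33.6 and 42.7 CPM in MitoParks. The summed markers were at 320 to 421 CPM in the littermate controls and 403 to 449 CPM in MitoParks. The other marker lists also had 0 genes past the cutoffs, except for Slc6a3, the dopamine transporter gene that carries Cre at 1 allele in MitoParks. Slc6a3 was at 72.6, 65.3 and 383 CPM in the littermate controls and at 13.3, 51.1 and 40.9 CPM in MitoParks. The median log2 fold change was 0.0022 for oligodendrocyte precursors, -0.01 for endothelium, 0.09 for pericytes and smooth muscle, 0.15 for fibroblasts, 0.22 for blood cells, -0.07 for neurons, -0.65 for dopaminergic neurons, 0.14 for striatal neurons and -0.53 for ependyma and choroid plexus. In the last list, Ttr, the transthyretin gene of the choroid plexus, was at 131 CPM in littermate control 2 and at most 22.9 CPM in the other 5 mice.

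**Figure D5:**
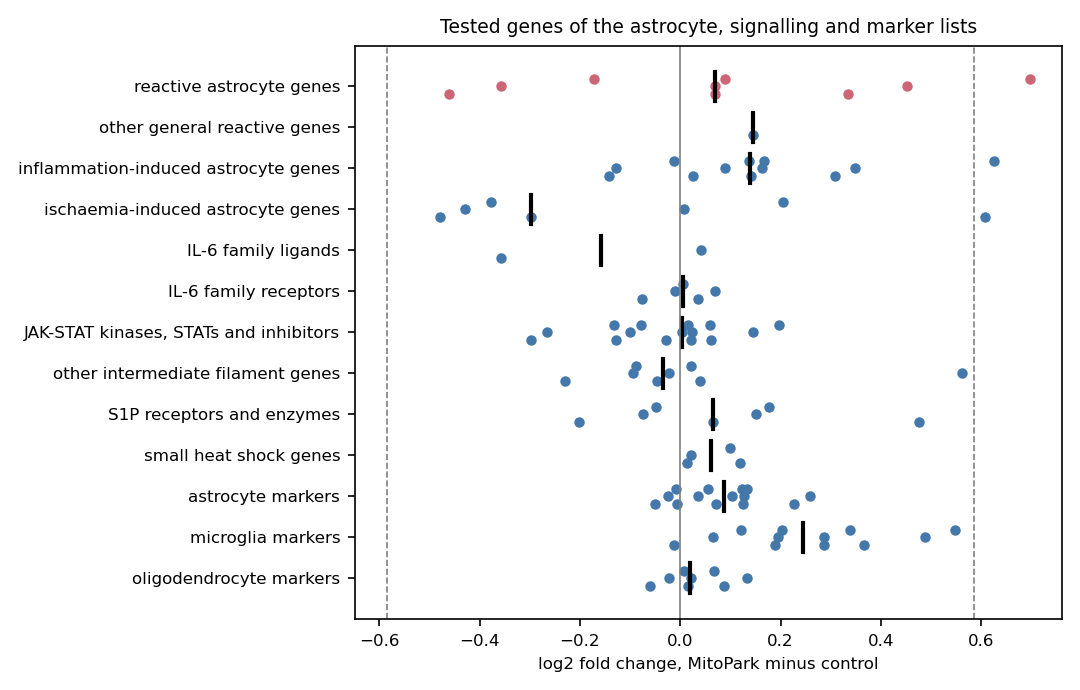
Log2 fold change (x axis, MitoPark minus littermate control) of each tested gene in 13 lists, with the reactive astrocyte genes in red and the median of each list as a black bar. Dashed lines mark a 1.5-fold change. The medians ranged from -0.30 for ischaemia-induced genes to 0.24 for microglia markers.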

How the data were processed

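RNA from the SN of 3 MitoParks and 3 littermate controls was sequenced. The authors mapped reads with Bowtie2 2.1.0 to UCSC transcripts and estimated expected counts per gene with RSEM 1.2.15, which they deposited without normalization. The submitters' processing notes name hg38, a human build, although the symbols are those of mouse, so no gene coordinates are given for the table. Whether counting used strand is not given in the sources used here. Between 11.91% and 14.11% of values per mouse were not whole.

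The expected counts were rounded, a gene was tested where its mean CPM exceeded 1 in either group, and edgeR 4.0.16 in R 4.3.3 fitted TMM-normalized counts by quasi-likelihood with group as the term. Benjamini-Hochberg adjustment ran across every gene tested. The study's methods give p and fold cutoffs for these data without saying whether p was adjusted, and an adjusted p cutoff in a separate section on expression analysis. Unadjusted p below 0.05 and a fold above 1.5 were used here, and adjusted values are given beside them. Standard errors and 95% intervals came from the same fit. Exact permutation tests (two-sided) used log2(CPM + 0.1). The floor for a count of 0 was 3 counts and covers counting error only. The procedure was also run on counts simulated from the means and dispersions fitted to these data. Such counts share the model of the fit, so that run cannot show whether the model suits the data.

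All 10 members were named. Of other lists, genes with an unadjusted p below 0.05, defining markers and up to 4 genes of highest mean CPM were named, and other names were chosen after their values were seen. The members and lists were chosen with earlier results of these data known. In the lists, Drd1 was matched as Drd1a, and 1 gene of the blood cell list was not analysed here. Within groups no pair of mice agreed within sampling noise (chi-square per degree of freedom 9.68 or more). Alternatives used DESeq2 1.42.0 and limma 3.58.1. Promoters were RefSeq windows on GRCm38.p6.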

Additional observations from a re-analysis of the deposited data

How the results depend on the processing

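The fold changes of the 9 tested genes kept their sign under all 11 alternatives that used all 6 mice. For Gfap these ranged from 0.70 to 0.72 on the log2 scale, and the number of members past the cutoffs moved from 0 to 1, which was Gfap, under edgeR's likelihood ratio test (0.70), limma-voom (0.70), total counts in place of TMM (0.72) and the replicate block (0.70). Without a filter on low counts the number was 2, Gfap (0.70, unadjusted p = 0.0246) and Lcn2, whose call rests on the 13 counts of littermate control 1, and 176 genes of the table passed in place of 84. The cause of these shifts was not tested. The replicate number as a block gave Gfap an unadjusted p of 0.000243 (edgeR, adjusted p = 0.653), and each MitoPark had more Gfap than the littermate control of the same number. The block moved the count of calls from 84 to 126. Same-numbered mice deviated from their group means with a correlation of 0.307, -0.0738 and 0.244 over all tested genes, 4 of 6 mice correlated best with their own number, and no litter or batch is given behind the numbers.

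Leaving out single mice gave 62 to 219 DEGs (133 without littermate control 1, 219 without littermate control 3, 217 without MitoPark 2), and moved the number of members past the cutoffs from 0 to 1. The median of the members ranged from -0.038 without littermate control 3 to 0.23 without littermate control 1. Log2 fold changes ranged from 0.36 to 1.09 for Gfap, 0.21 to 0.81 for Aspg, 0.15 to 0.44 for Osmr, -0.41 to -0.26 for S1pr3, -0.66 to -0.11 for Hspb1, -0.34 to 0.064 for Cd44, -0.19 to 0.27 for Vim, -0.19 to 0.47 for Serpina3n and -0.038 to 0.23 for Stat3. Serpina3n (-0.19 and -0.13) and Stat3 (-0.038 and -0.031) changed sign without littermate control 3 and without MitoPark 1, Cd44 (0.064) without MitoPark 1 and Vim (-0.19) without MitoPark 3. Osmr, Aspg and Hspb1 rest on 73 counts or fewer per mouse, and the fold intervals of all 3 include a change of 1.5-fold.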
